A study of Mus musculus with 40 samples.

Results

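The 10 granulocyte granule genes S100a8, S100a9, Mpo, Elane, Prtn3, Ngp, Camp, Ltf, Lcn2 and Mmp8 were followed as RNA through sorted B-lineage fractions of mouse bone marrow. They were chosen by symbol: each was one row of the count table, found through its Ensembl identifier, and they make up 10 of the 21958 genes in it. Their summed level was read as a measure of myeloid RNA inside the B-cell gates, on the assumption that granulocyte-lineage cells are their main source. Whether B-lineage cells made part of these transcripts was not tested. Their counts ranged from a trace to several percent of a library, in libraries of both genotypes.

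Neutrophils fill their granules in a fixed order while they mature in the marrow. Promyelocytes transcribe the cargo of the primary (azurophil) granules first, which includes myeloperoxidase and the serine proteases neutrophil elastase and proteinase 3. Myelocytes and later stages then transcribe the cargo of the secondary and tertiary granules, such as lactoferrin and cathelicidin, and mature cells carry large amounts of the cytosolic calcium-binding pair S100A8 and S100A9 (calprotectin).

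The study asked how a missense change in the zinc transporter ZIP7, encoded by Slc39a7, alters gene expression along B-cell development. Lethally irradiated CD45.1 hosts were given marrow of wild-type (WT) mice or of mice homozygous for P198A, an allele made with CRISPR/Cas9, and were analysed 8 weeks later. Each of 5 WT and 5 mutant chimeras gave 1 library of 100 cells from each of 4 Hardy fractions, which makes 8 groups of 5 and 40 libraries. RNA was amplified with Smart-seq2, and ERCC spike-in RNA was added to the lysis mix.

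All gates for which the labels give markers took CD45.2+ CD45.1- donor cells that carry B220. FrB (pro-B) was also CD43+ CD24+ BP1-, FrD (late pre-B) was CD43- IgM- IgD-, and FrE (immature B) was CD43- IgM+ IgD-. For FrC the sources used here give no gate, and they give no age for the mice. The antibodies named in the labels include none to Gr-1 or CD11b. The donor marrow was mutant in all its lineages, so the allele was not limited to B cells. WT mice carry the numbers 1, 2, 3, 6 and 7 and mutant mice the numbers 4, 5, 8, 9 and 10, and a shared number marks a shared animal. In libraries of this kind, fewer granulocytes in a sort and less RNA per granulocyte cannot be told apart.

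Libraries held 42111 to 43372070 counts of endogenous genes, with a median of 16474388. Libraries in which over 15% of detected genes rested on 1 to 9 counts are called low-complexity libraries, and there were 10. They are the FrB libraries of mutant mice 4, 8, 9 and 10, the FrC libraries of mutant mice 5, 9 and 10, the FrE library of mutant mouse 9, the FrD library of WT mouse 3 and the FrE library of WT mouse 7. B-lineage defining genes, among them Cd79a and Pax5, were present in every library: the summed level of the 12 listed ranged from 5001 to 34226 CPM (counts scaled to the library total of endogenous genes, per 1000000).

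The promoters of the 10 genes were read from RefSeq (GRCm38.p6, 250 bases before to 50 bases after the start site), and all 10 were matched. A purine-rich ETS-type box, GAGGAAGT on either strand, was present in all 3 early granule genes, in 1 of the 5 late ones (Mmp8) and in S100a8. It occurs in 3.20% of the 32851 mouse promoters of the same length. The 3 early windows are shown because they carry the box in the same orientation, marked in capitals. Its first base lies 224, 85 and 95 bases before the RefSeq start of Mpo, Elane and Prtn3.
Mpo, chr11:87793534-87793593, plus strand: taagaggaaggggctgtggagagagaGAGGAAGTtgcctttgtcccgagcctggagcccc
Elane, chr10:79886201-79886260, plus strand: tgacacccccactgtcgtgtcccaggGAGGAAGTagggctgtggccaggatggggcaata
Prtn3, chr10:79879546-79879605, plus strand: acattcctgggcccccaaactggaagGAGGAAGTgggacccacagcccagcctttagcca

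A C/EBP-type motif, TTGCNNAA on either strand, occurs in 10.8% of those promoters. It was present in 4 of 5 late genes (Ngp, Ltf, Lcn2 and Mmp8) and in S100a9, and in 0 of the 3 early genes. The 4 late windows are shown to set them beside the early ones, again with the match in capitals. The first base of the match lies 138, 75, 216 and 19 bases before the RefSeq start of Ngp, Ltf, Lcn2 and Mmp8. Ngp holds a second match, in the opposite orientation, 11 bases before its start, which is not shown.
Ngp, chr9:110419644-110419703, plus strand: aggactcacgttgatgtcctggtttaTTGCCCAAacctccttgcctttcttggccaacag
Ltf, chr9:111019191-111019250, plus strand: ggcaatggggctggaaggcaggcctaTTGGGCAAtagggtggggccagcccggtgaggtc
Lcn2, chr2:32387922-32387981, minus strand: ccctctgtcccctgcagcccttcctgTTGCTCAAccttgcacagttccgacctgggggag
Mmp8, chr9:7558384-7558443, plus strand: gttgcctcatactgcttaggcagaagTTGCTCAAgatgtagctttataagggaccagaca
The windows of Prtn3 and Lcn2 lie inside the GENCODE M21 gene, whose longest transcript starts further upstream. Camp held neither motif in its window and Mmp8 held both. A match of letters is a description of the promoter and not a binding site.

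The genes sit on 5 chromosomes in GRCm38. Elane (chr10:79886247-79888215) and Prtn3 (chr10:79874476-79883174) are neighbours on the plus strand, and S100a8 (chr3:90668978-90670035) and S100a9 (chr3:90692632-90695721) lie side by side on opposite strands. Ngp (chr9:110419747-110423012), Camp (chr9:109847379-109849617), Ltf (chr9:111019271-111042767) and Mmp8 (chr9:7558456-7568485) share a chromosome, while Mpo (chr11:87793581-87804413) and Lcn2 (chr2:32384633-32388252) stand alone. Exons of Prtn3 overlap those of Plppr3 on the other strand, which had 1364 counts over the 40 libraries against 48346 for Prtn3. Exons of Mpo overlap an antisense gene, Gm11505, that has no row in the table. No source used here states whether the counting used strand, and without it such reads cannot be told apart.

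Compared per length, as CPM per kilobase of exon, the S100 pair led and Mpo came last. The median over the 40 libraries was 97.6 CPM per kilobase for S100a9 and 76.4 for S100a8. Camp, the cathelicidin precursor, followed at 18.9 and Ngp, the neutrophilic granule protein, at 14.6. Elane, which encodes neutrophil elastase, had a median of 2.52 and Lcn2, the iron-siderophore binding lipocalin, one of 2.15. The lowest medians were 0.357 for Ltf (lactoferrin), 0.261 for Prtn3 (proteinase 3), 0.250 for Mmp8 (neutrophil collagenase) and 0.148 for Mpo (myeloperoxidase). Each gene spanned several orders of magnitude between libraries, S100a9 for example from 0.553 to 50788 CPM per kilobase. All were measured in the same libraries, and differences between neighbours in this order were not tested. S100a8, S100a9, Ngp and Camp had counts in all 40 libraries, and the other 6 genes in 31 to 38.

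The summed level of the 10 genes ran from 1.36 CPM (52 counts, FrC of mutant mouse 8) to 77369 CPM (FrD of WT mouse 3), with a median of 273 CPM. The highest value equals 7.74% of all counts in that library. The sum passed 1000 CPM in 17 libraries, 5 of them WT and 12 mutant. It passed 10000 CPM in 9 libraries, 2 WT and 7 mutant, and 7 of these 9 were of low complexity. Over the 10 low-complexity libraries the sum ran from 187 to 77369 CPM with a median of 19859, and over the other 30 from 1.36 to 69145 CPM with a median of 54.3. The part of library complexity in these levels was not tested.

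**Figure D1:**
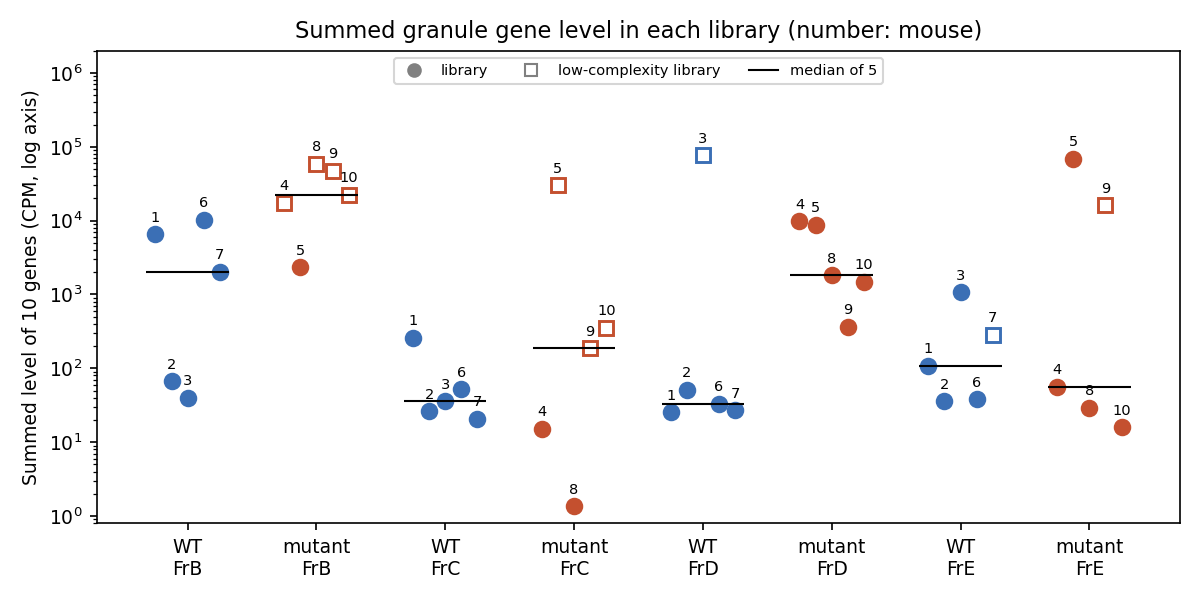
Summed level of the 10 granule genes in each of the 40 libraries, in CPM on a log axis, by fraction and genotype. Numbers name the mouse, open squares are low-complexity libraries and lines are medians of 5. Mutant FrB and mutant FrD sit high as groups, while the high values of WT FrD, mutant FrC and mutant FrE belong to 1 or 2 libraries.

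FrB was the gate with the most granule RNA in most animals. In WT FrB the sum was 6560, 66.9, 40.2, 10345 and 2020 CPM in mice 1, 2, 3, 6 and 7. In mutant FrB it was 17461, 2324, 58959, 47687 and 22258 CPM in mice 4, 5, 8, 9 and 10. The median was 2020 CPM in WT and 22258 CPM in mutants, and 4 of the 5 mutant libraries lay above the highest WT library. Those 4 are the low-complexity libraries of this gate, so that genotype and low complexity coincide in 9 of its 10 libraries. The remaining mutant library, that of mouse 5, fell among the WT values.

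In FrC the sums were low with 1 exception. WT mice 1, 2, 3, 6 and 7 had 259, 26.3, 35.7, 52.5 and 20.7 CPM. Mutant mice 4, 5, 8, 9 and 10 had 15.2, 30382, 1.36, 187 and 355 CPM. With library sizes scaled by TMM over all 40 libraries, the sum of mutant mouse 9 was 1499 CPM. The groups overlapped, mutant mouse 5 stood above all others, and the 3 highest mutant libraries were all of low complexity. Mutant mice 4 and 8, whose libraries were not, had the lowest sums in the gate.

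FrD split by genotype except for WT mouse 3. The sum in WT FrD was 25.5, 51.1, 77369, 33.3 and 27.1 CPM in mice 1, 2, 3, 6 and 7. In mutant FrD it was 9855, 8796, 1815, 368 and 1491 CPM in mice 4, 5, 8, 9 and 10, and none of these 5 libraries was of low complexity. The medians were 33.3 CPM in WT and 1815 CPM in mutants, 54.5-fold higher. All 5 mutant libraries lay above 4 of the WT libraries and below the fifth, the low-complexity library of mouse 3. Without that library the WT median was 30.2 CPM.

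In FrE most libraries held little granule RNA. WT mice 1, 2, 3, 6 and 7 had 109, 36.0, 1066, 38.0 and 287 CPM. Mutant mice 4, 5, 8, 9 and 10 had 56.1, 69145, 29.1, 16100 and 16.0 CPM. The groups overlapped and the mutant median, 56.1 CPM, was below the WT median of 109 CPM. The log2 ratio of the medians was -0.96, and it turned to 6.21 when mutant mouse 4, 8 or 10 was left out. The library of mutant mouse 9 held only 42111 counts, 678 of them from the 10 genes. That of mutant mouse 5 was complex, with 19511301 counts.

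Within an animal the fractions differed by large factors, and the high fraction was not the same in all. FrB held the highest of the 4 sums in 4 of 5 WT mice and in 4 of 5 mutant mice. The exceptions were WT mouse 3, highest in FrD, and mutant mouse 5, highest in FrE and lowest in FrB. The ratio of the highest to the lowest fraction within a mouse ran from 2.54 in WT mouse 2 to 43222 in mutant mouse 8. Mutant mouse 8, for example, held the highest sum of mutant FrB and the lowest of mutant FrC.

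The early granule genes were tested first. In FrB, Mpo measured 3.44, 6.27, 0.501, 0.722 and 0.369 CPM in WT mice 1, 2, 3, 6 and 7. Mutant mice 4, 5, 8, 9 and 10 had 477, 0.599, 2.81, 1166 and 639 CPM. The mutant values thus fell into 3 high libraries and 2 that overlapped WT. The group means were 2.26 ± 2.58 CPM in WT and 457 ± 488 CPM in mutants (SD, n = 5 each). Mpo rose by 7.92 ± 1.81 on the log2 scale (SE; adjusted p = 0.0225 by edgeR's quasi-likelihood test with Benjamini-Hochberg adjustment over all genes). Prtn3 had a log2 fold change of 4.84 (adjusted p = 0.0810) and Elane one of 2.93 (adjusted p = 0.218), and neither passed the threshold of 0.05.

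Among the late genes Mmp8 passed in FrB. It measured 0.639, 0.355, 0.376, 0.939 and 14.6 CPM in WT mice 1, 2, 3, 6 and 7 and 27.2, 22.7, 567, 924 and 205 CPM in mutant mice 4, 5, 8, 9 and 10. The 2 groups did not overlap, and Mmp8 was the only one of the 10 genes of which this held in FrB. Among all 10562 genes tested in FrB, 4.41% lay higher in mutants without overlap. The means were 3.38 ± 6.27 CPM in WT and 349 ± 390 CPM in mutants (SD, n = 5 each), and the log2 fold change was 7.25 ± 1.50 (SE, adjusted p = 0.0130, edgeR).

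The other late genes had positive fold changes in FrB that did not pass. Ltf had a log2 fold change of 4.71 (adjusted p = 0.111), Camp of 3.46 (0.213), Lcn2 of 3.34 (0.236) and Ngp of 2.53 (0.373), each by edgeR. Lcn2 shows the spread behind these values: it had 266, 1.01, 1.25, 510 and 90.4 CPM in WT mice 1, 2, 3, 6 and 7 and 377, 140, 1867, 2922 and 1179 CPM in mutant mice 4, 5, 8, 9 and 10. WT mouse 6 lay above mutant mice 4 and 5, so the groups overlapped.

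The S100 pair behaved likewise in FrB. S100a8 measured 1668, 23.4, 10.3, 3454 and 820 CPM in WT mice 1, 2, 3, 6 and 7 and 5506, 672, 16366, 14721 and 7664 CPM in mutant mice 4, 5, 8, 9 and 10. Only mutant mouse 5 fell within the WT values. The log2 fold change was 3.39 ± 1.51 for S100a8 (SE, adjusted p = 0.207, edgeR) and 3.94 ± 1.56 for S100a9 (SE, adjusted p = 0.160, edgeR).

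In all, 2 of the 10 genes rose in FrB and none fell, where 7.37% of the genes tested were called and 5.64% were called higher. All 10 fold changes were above 0, with a median of 3.70 against 0.11 over all genes tested. Without the low-complexity libraries the mutant group is the single library of mouse 5, taken to vary like the others. Set against WT it gave a median of -0.82 over the 10, with 2 above 0 (Mmp8 at 2.73 and Ltf at 0.71). In that fit 0 were called by edgeR, where 1.2% of genes were called, and 0 had an unadjusted p under 0.05, where 13.1% of genes did. With 1 mutant library this fit does not show what the other 4 contribute to the calls. DESeq2 called 8 of the 10 on all libraries, where it called 18.1% of genes, and Mpo lost its call when any 1 of the 5 WT mice was left out.

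**Figure D2:**
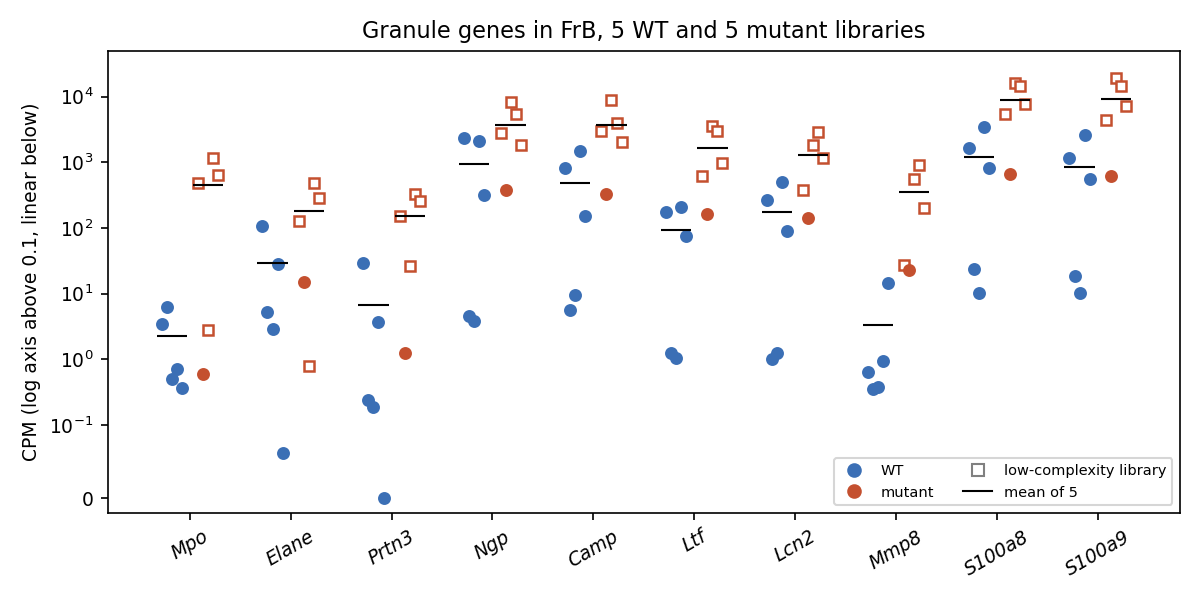
Level of each granule gene in the 5 WT and 5 mutant FrB libraries, in CPM on a log axis above 0.1 and linear below. Open squares are low-complexity libraries and lines are means of 5. Mmp8 alone separates the groups, with the highest WT library at 14.6 CPM and the lowest mutant library at 22.7 CPM.

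The wider granulocyte programme in FrB was read from lists of other genes, which were chosen with earlier results of these data known. Of 21 tested genes of late granules and mature neutrophils, 6 rose and 0 fell in mutant FrB, with a median log2 fold change of 2.97. Over all genes tested in FrB, 7.37% were called and 5.64% were called higher. The 5 of lowest p were S100a6 at 2.97, Retnlg (a resistin-like secreted protein of neutrophils) at 6.22, Wfdc21 at 4.86, Mmp9 (gelatinase B of tertiary granules) at 6.55 and Cd177 (a neutrophil surface protein) at 5.06. Of 14 tested genes of early granules and promyelocytes, 1 rose (Igfbp4, log2 fold change 2.73) and 1 fell (Srgn, the granule proteoglycan serglycin, -1.07). None of 11 granulocyte transcription factors and receptors was called, with a median of 1.65. Without the low-complexity libraries, which leaves 1 mutant library, the median over the 24 genes of the late list then tested was -0.81.

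Summed levels of marker lists of other cell types, and of B-lineage genes, also differed in FrB. How far each list is limited to its cell type was not tested, and the monocyte and macrophage list summed to 1990 to 3408 CPM in WT FrE. The 20 listed monocyte and macrophage genes summed to 1185 to 1812 CPM in WT FrB and 447 to 722 CPM in mutant FrB, lower in all 5 mutant libraries. The 12 B-lineage genes summed to 11739 to 14978 CPM in WT FrB and 6411 to 9827 CPM in mutant FrB, again without overlap. The plasma cell markers, among them Jchain and Xbp1, summed to 18230 to 53697 CPM in WT FrB (median 30484) and 984 to 13010 CPM in mutant FrB (median 4233), also without overlap. Ly6g, a surface marker of neutrophils that is no member, measured 0 to 9.97 CPM in WT FrB and 7.67 to 91.1 CPM in mutant FrB, so the groups overlapped. Tested gene by gene in FrB, 1 of 14 monocyte and macrophage genes and 2 of 10 plasma cell genes were called, all lower in mutants. Of the 12 B-lineage genes 3 were called higher and 3 lower, where 7.37% of all genes were called. Of the 5 mutant FrB libraries 4 were of low complexity. The part of other cell types, or of library complexity, in the granule gene result was not tested.

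In FrC, 7 of the 10 genes passed the low-count filter and 0 were called, where 0 of 10299 genes (0%) were called at all. An unadjusted p under 0.05 was found for 6 of the 7 genes and for 1168 of all genes (11.3%). DESeq2 gave an adjusted p to 4 members and called 2 of them (Ltf and Mpo), where it called 12.2% of genes. The 7 fold changes were above 0, with a median of 7.38. Without mutant mouse 5 the median was 2.32, 6 of 7 stayed above 0 and Elane was at -0.27. Ltf, for example, had 0.289 to 2.91 CPM in the 5 WT libraries. It had 1246 CPM in that mouse, against at most 16.8 CPM in the other mutants. The fits scale libraries by TMM, and with TMM factors over all 40 libraries mutant mouse 9 (factor 0.127) had 135 CPM of Ltf. The log2 fold change of Ltf was 8.18 ± 2.39 (SE, adjusted p = 0.271, edgeR), and it was 4.24 without mutant mouse 5. Without the low-complexity libraries, which leaves 2 mutant libraries, it was -2.64 and all 7 genes were below 0.

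In FrD all 10 genes were tested and 0 were called by edgeR, where 1 of 10043 genes (0.00996%) was called. The early genes had positive fold changes: Prtn3 measured 0.122, 0.0489, 0.471, 0.346 and 0.337 CPM in WT mice 1, 2, 3, 6 and 7 and 3.59, 23.4, 190 and 99.2 CPM in mutant mice 5, 8, 9 and 10. Mutant mouse 4 had 0 counts of Prtn3, which allows up to 0.118 CPM, so the groups overlapped through that mouse. The log2 fold change was 7.66 ± 1.75 for Prtn3 (SE, adjusted p = 0.296), 6.46 ± 1.81 for Mpo (SE, adjusted p = 0.518) and 6.22 ± 1.88 for Elane (SE, adjusted p = 0.655), each by edgeR. These 3 had unadjusted p under 0.05, where 5.28% of genes did, and DESeq2 called all 3, where it called 2.58% of genes. DESeq2 gave an adjusted p to only 4 of the 10 members in FrD.

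The late genes and the S100 pair showed the opposite sign in FrD, through 1 library. S100a8 measured 6.70, 18.8, 32500, 12.1 and 7.17 CPM in WT mice 1, 2, 3, 6 and 7 and 2706, 3792, 422, 16.4 and 516 CPM in mutant mice 4, 5, 8, 9 and 10. WT mouse 3 lay above every mutant library, and 4 of the 5 mutant libraries lay above the other WT libraries. The fold changes of these 7 genes ran from -2.90 (S100a9) to -0.83 (Ngp), and the median over all 10 genes was -1.16 against -0.07 over all genes tested.

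Without the FrD library of WT mouse 3 all 10 genes were above 0, with log2 fold changes of 5.97 to 8.00 and a median of 7.02. None was called at an adjusted p under 0.05, where 0.376% of genes were called. All 10 had an unadjusted p under 0.05, where 12.2% of genes did. With the second index of the library (a set of tags used in preparation) as a covariate and all libraries kept, all 10 were above 0 as well, with a median of 2.09.

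In FrE, 6 genes passed the filter and 0 were called by edgeR, where 0 of 9662 genes (0%) were called. At an unadjusted p under 0.05 there were 3 of the 6 and 512 of all genes (5.3%), and DESeq2 called 4 members, where it called 1.12% of genes. All 6 fold changes were above 0, from 4.49 (S100a9) to 8.07 (Elane), with a median of 6.44. Elane had 1.73 to 13.6 CPM in the 5 WT libraries and 7904 and 1710 CPM in mutant mice 5 and 9, but at most 0.370 CPM in mutant mice 4, 8 and 10. The mutant group thus held both the highest and the lowest Elane values of the gate. Without mutant mouse 5 the median was 3.56.

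**Figure D3:**
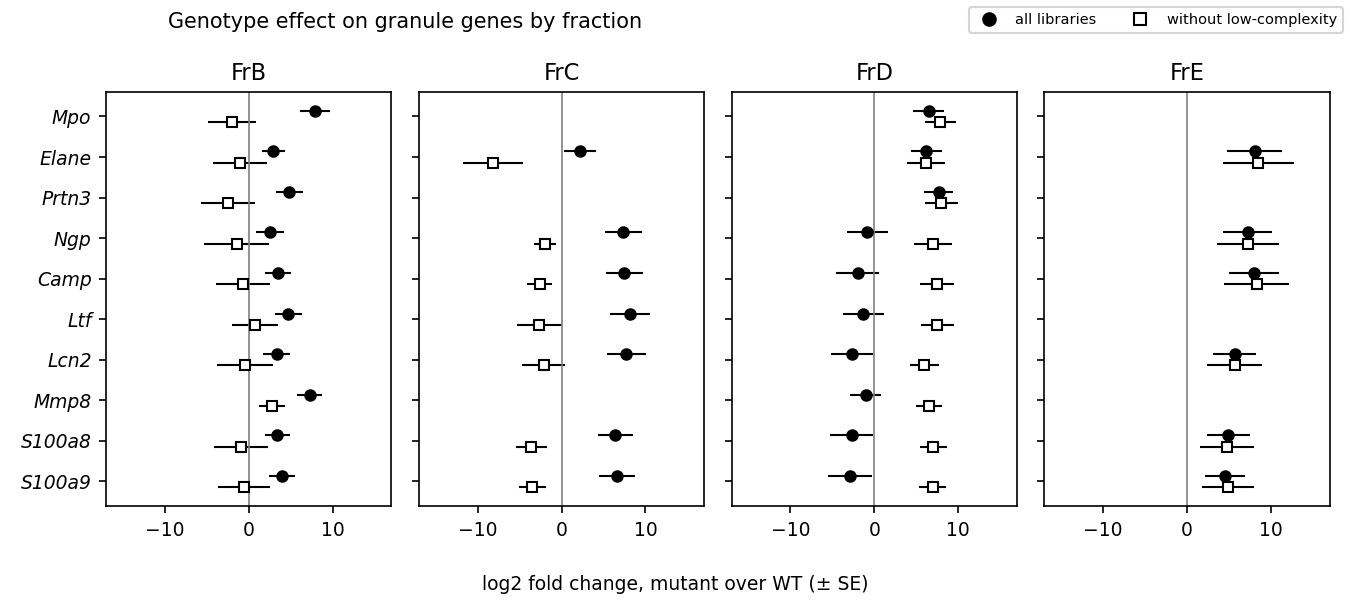
Log2 fold change of each granule gene, mutant over WT, in the 4 fractions, with SE, for all libraries (filled circles) and without the low-complexity libraries (open squares, with 1 mutant library left in FrB and 2 in FrC). Genes that did not pass the low-count filter have no point. The sign turns for 8 genes in FrB, for all 7 in FrC and for 7 in FrD, and for none in FrE.

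Differences between the gates were tested within each genotype. In WT, 1 of 9 tested genes was called (Ltf, adjusted p = 0.0286, edgeR), where 11.8% of genes were called. Ltf had a mean of 92.6 ± 96.9 CPM in FrB, 1.18 ± 1.23 in FrC, 150 ± 334 in FrD and 0.542 ± 0.441 in FrE (SD, n = 5 each). The FrD mean comes from mouse 3, at 747 CPM, while the other 4 WT FrD libraries lay at or below 0.832 CPM. Without mouse 3, 6 genes were called (Camp, Lcn2, Ltf, Ngp, S100a8 and S100a9), where 9.62% of genes were, and without mouse 1, 6 or 7 Ltf was not called. With the mouse as a block none was called, where 7.96% of genes were, with Ltf at an adjusted p of 0.145 (edgeR).

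In mutants 0 of the 10 genes were called between gates by edgeR, where 11.5% of genes were called. At an unadjusted p under 0.05 there was 1 member, where 25.1% of genes lay, and DESeq2 called 1 (Mmp8), where it called 15.6%. Mmp8 was also called by edgeR without mutant mouse 5 (adjusted p = 0.0437). The lowest adjusted p was 0.174, for Mmp8. Whether the genotype effect differed between gates was tested on all 40 libraries: 0 of the 10 genes were called, where 4.41% of genes were, and 3 had an unadjusted p under 0.05, where 21.2% of genes did. DESeq2 called 1 member, Camp, where it called 6.9% of genes, and 7 of the 10 had an unadjusted p under 0.05 by that tool.

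The make-up of the granule RNA also varied. S100a8 and S100a9 gave 31.5% and 25.2% of all counts of the 10 genes, Ngp and Camp 14.6% and 14.5%. The early genes gave 4.47% (Elane), 1.24% (Prtn3) and 1.15% (Mpo). Per library, the early share had a median of 2.64% and ran from 0% to 80.9%. Within the S100 pair, S100a8 took a median of 56.2% of the counts.

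Libraries with much granule RNA held different mixtures. WT mouse 3 FrD and mutant mouse 4 FrD, at 77369 and 9855 CPM, held almost no early counts: the 3 early genes gave 0.00183% and 0.00279% of their granule counts. In WT mouse 3 FrD the late genes gave 23.7% and the S100 pair 76.3%. Mutant mouse 8 FrB, at 58959 CPM, had an early share of 0.0504%. By contrast mutant mouse 5 FrE, at 69145 CPM, had one of 14.5%, with 7904 CPM of Elane and 1453 CPM of Prtn3. The 3 libraries with the highest sums thus held early and late transcripts in different ratios, each over at least 146842 granule counts.

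Mutant FrD shows the widest mixture within a group. The early share was 0.00279%, 0.0627%, 3.11%, 80.9% and 21.4% in mice 4, 5, 8, 9 and 10. Mouse 9 held 190 CPM of Prtn3, 69.3 of Elane and 38.0 of Mpo beside 16.4 CPM of S100a8, and mouse 4 held 3100 CPM of Ngp and 2706 of S100a8 beside 0.157 CPM of Mpo. Mice 4 and 5 thus held almost only late and S100 counts, and mouse 9 mostly early ones.

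**Figure D4:**
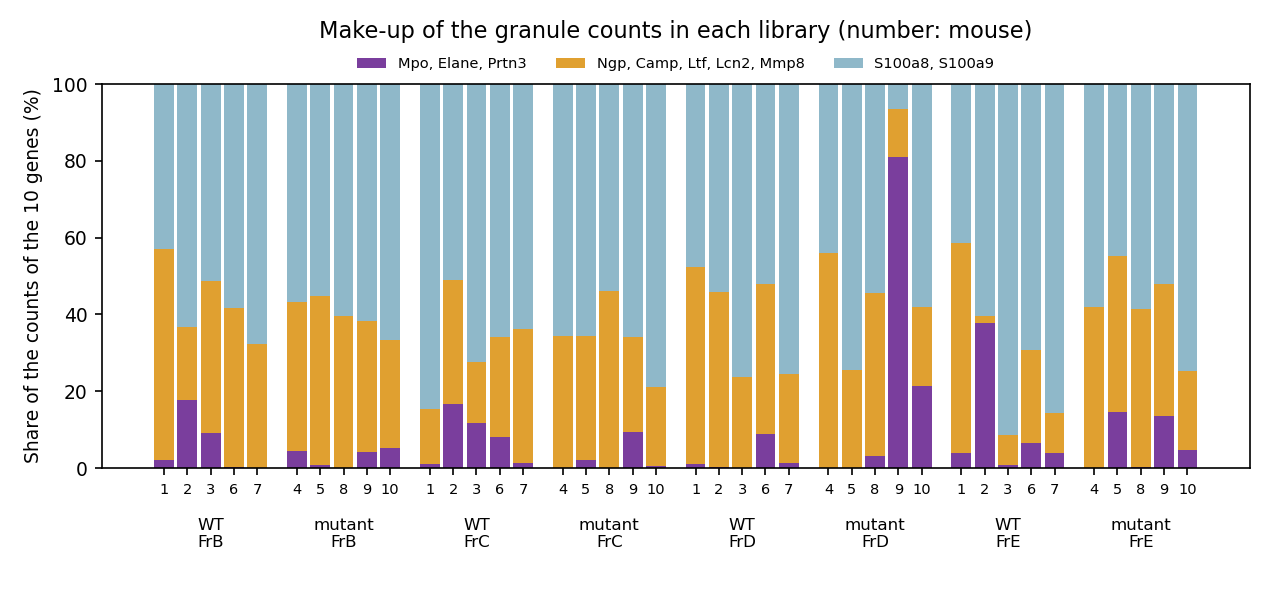
Share of the counts of the 10 genes from early granule genes, late granule genes and the S100 pair in each library, in percent, ordered by group and mouse. Most libraries are dominated by late genes and the S100 pair, and mutant mouse 9 in FrD is the exception with 80.9% from early genes.

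Other myeloid transcripts were set beside the mixture in FrD, chosen after their values were seen. Lyz2 (lysozyme, made by monocytes, macrophages and granulocytes) measured 6001, 3217, 12987, 22446 and 11145 CPM in mutant mice 4, 5, 8, 9 and 10. In WT mice 1, 2, 3, 6 and 7 it measured 2287, 8380, 1703, 1141 and 19.9 CPM. The mutant library with the least granule RNA, that of mouse 9, held the most Lyz2 and also the most Csf1r (the receptor for macrophage colony-stimulating factor), at 285 CPM against 45.1 to 93.7 CPM in the other mutants.

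Ctsg, which encodes the early granule protease cathepsin G, split mutant FrD in the same way as the early members. It measured 246, 67.4 and 97.5 CPM in mice 8, 9 and 10 and 0.157 and 0.414 CPM in mice 4 and 5. Like Ly6g below, it was chosen after its values were seen. The 14 listed genes of early granules and promyelocytes, Ctsg among them, summed to 3404 to 4425 CPM in mutant FrD, without such a split. Of the 8 tested in FrD, 0 were called. In WT FrC the same list summed to 2030 to 2413 CPM, where the 3 early members summed to 0.252 to 4.35 CPM. Its sum thus cannot show whether other early granule genes split like Ctsg. Ly6g, which encodes the neutrophil surface antigen Ly-6G, was higher in mice 4 and 5, at 34.4 and 37.5 CPM, than in mouse 8, at 7.5 CPM. Mice 9 and 10 had 0 counts of it, which allows up to 0.0692 and 0.127 CPM. The 30 listed genes of late granules and mature neutrophils hold both Ly6g and Lyz2, and summed to 4486 to 25144 CPM in mutant FrD. Lyz2 went the other way from Ly6g, lower in mice 4 and 5 than in mice 8, 9 and 10. Of the 16 genes of that list tested in FrD, 0 were called. The 20 monocyte and macrophage genes summed to 1300 to 4486 CPM in mutant FrD and 274 to 3077 CPM in WT FrD, and their part in the granule gene values was not tested.

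**Figure D5:**
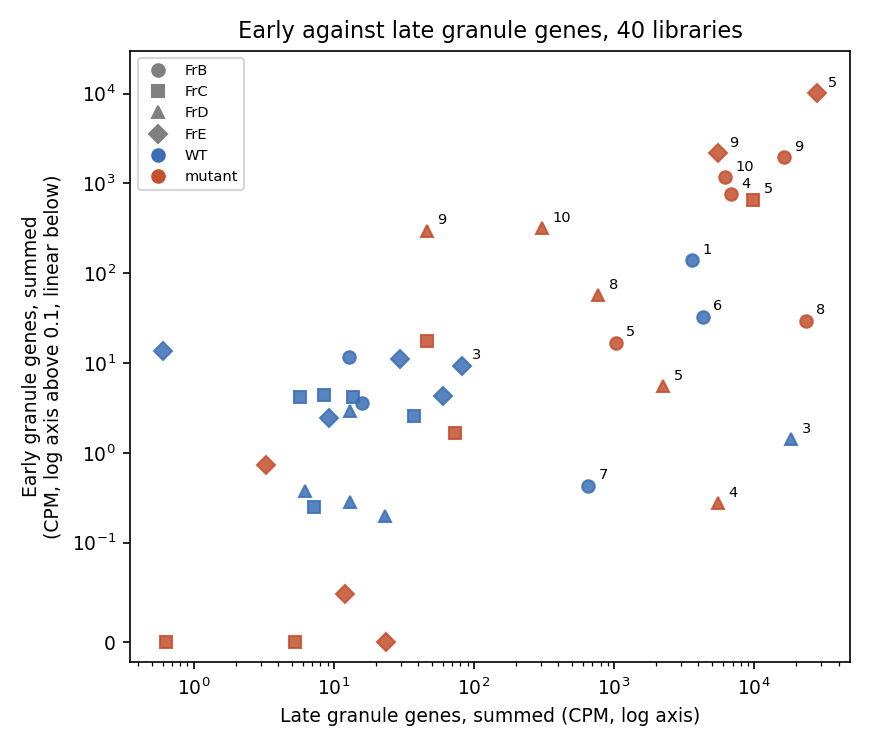
Summed early granule genes (Mpo, Elane, Prtn3) against summed late granule genes (Ngp, Camp, Ltf, Lcn2, Mmp8) in the 40 libraries, in CPM on log axes, the early axis linear below 0.1. Shapes are fractions, colours genotypes, and numbers name the mouse where the sum of all 10 genes passed 1000 CPM or the early share 40%. Points at the same late level differ in early level by several orders of magnitude.

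The 10 genes followed their own sum to different degrees. Over the 40 libraries Spearman's rho with the summed level was highest for S100a8 (0.98) and S100a9 (0.96), which dominate that sum, and lowest for Elane (0.60). Among 12387 other genes the closest to the sum were Chil3 (rho 0.83), Retnlg (0.82), Pglyrp1 (0.81), Mmp9 (0.80) and Fyb (0.80). These are descriptions, since the 40 libraries come from 10 mice and share depth and gate. Chil3, a chitinase-like protein, ranged from 0 to 1715 CPM with a median of 22.8 CPM, and Pglyrp1, a peptidoglycan recognition protein of neutrophil granules, from 0 to 627 CPM with a median of 13.3 CPM. Fyb, an adaptor protein, was present in all libraries at 3.19 to 112 CPM.

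The second index of the libraries was not evenly spread over the genotypes, and values within each set are given beside the pooled ones. In FrB the first set of 4 indices held WT sums of 66.9 and 10345 CPM and mutant sums of 17461 to 58959 CPM. The second set held WT sums of 40.2 to 6560 CPM and mutant sums of 2324 and 47687 CPM. In FrD the first set held WT sums of 33.3 and 51.1 CPM and mutant sums of 1491 to 9855 CPM. The second held WT sums of 25.5 to 77369 CPM and mutant sums of 368 and 8796 CPM. Mutant medians were thus higher within both sets in FrB and FrD. In FrC and FrE they were higher in the second set and lower in the first.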

How the data were processed

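RNA was measured by Smart-seq2 in 40 libraries of 100 sorted cells. The authors deposited raw counts per gene. Per the submitters' processing notes the tools were HISAT2 2.1.0, featureCounts 1.4.6 of Subread and DESeq2, with build mm10; the sources used here give no annotation release or strand setting. Smart-seq2 reads carry no molecular identifiers, so limits from counts cover counting error only. The 92 spike-in rows were left out of totals, and 21728 of 21958 identifiers matched GENCODE M21, whose build is the same and whose merged exons gave the lengths.

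Groups follow the titles and labels. The main test was edgeR 4.0.16 (R 4.3.3; robust glmQLFit and glmQLFTest, TMM, filterByExpr with minimum count 10 and minimum total 15), two-sided, on the 10 libraries of a fraction, with calls at an adjusted p (Benjamini-Hochberg, all genes) below 0.05. Gate effects were fitted on 20 libraries, the interaction on 40. Alternatives were DESeq2 1.42.0, its size factors, ERCC scaling, no filter, a joint fit, the second index, the mouse block, leaving out each mouse and leaving out low-complexity libraries. Errors are SD for levels and SE for fold changes. Where a library had no count, the limit given is 3 counts of its total. The tests were also run on simulated counts, with the same spread set for every gene and changes placed in well-counted genes only. That run does not show how the tests behave for genes as uneven between libraries as these.

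All 10 genes are named. From other lists, at most 5 genes of lowest p that were called are named, with the 5 genes closest to the summed level. Outside this rule are markers given as examples of a list, and Lyz2, Csf1r, Ctsg and Ly6g. Those last genes were not called between genotypes in the gates where they are given. The members and lists were chosen with earlier results of these data known. Same-numbered libraries come from the same animal by their titles; deviations from group means correlated by a median of 0.030 over 60 same-mouse pairs (-0.253 to 0.162), so the pairing rests on the animal. No libraries were identical (highest correlation 0.980). Nothing says that the animals were handled in separate experiments, so p-values of the genotype tests within a fraction measure the spread between these mice. The main gate and interaction fits had no mouse block and treat libraries of the same mouse as independent. With the block the genes called in the interaction went from 547 to 2. ERCC scaling moved the median of all genes from 0.11 to 0.59 in FrB and from -0.07 to 0.39 in FrD.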

Additional observations from a re-analysis of the deposited data

Results flagged for a closer look

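In 88 groups of 5 libraries (each of the 10 genes and their summed level, in each fraction and genotype), 18 had a library whose gap to its nearest neighbour on the log2(CPM + 1) scale exceeded Dixon's 95% critical share of the group's range; chance flags about 1 group in 20. In every case the flagged library was the highest of its group.

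The FrD library of WT mouse 3 gave 8 of the flags with high levels: S100a8 at 32500 CPM, S100a9 at 26511, Camp at 7653, Ngp at 5480, Lcn2 at 4273, Ltf at 747, Mmp8 at 203 and the summed level at 77369 CPM. The nearest WT FrD library had 18.8 CPM of S100a8 and 5.28 CPM of Camp. Mpo was also highest there, but at 0.628 CPM. In other fractions mouse 3 stood out for Mpo in FrC (4.2 CPM) and FrE (6.56 CPM) and for Mmp8 in FrE (8.31 CPM).

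In mutant FrC the library of mouse 5 stood apart for Lcn2 at 1053 CPM, Mmp8 at 118 CPM and Prtn3 at 24.4 CPM, where the nearest libraries had 6.38, 0.618 and 1.16 CPM. WT mouse 7 stood apart for Mmp8 in FrB (14.6 CPM) and in FrC (2.59 CPM), and WT mouse 6 for Elane in FrD (2.47 CPM).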

How the results depend on the processing

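Leaving out the low-complexity libraries turned the sign of fold changes in FrB, FrC and FrD but in no gene tested in FrE. In FrB, where 1 mutant library is left, 8 genes turned negative: Prtn3 at -2.45, Mpo at -1.97, Ngp at -1.43, Elane at -1.01, S100a8 at -0.93, Camp at -0.70, S100a9 at -0.59 and Lcn2 at -0.42. All 7 tested in FrC did: Elane at -8.16, S100a8 at -3.59, S100a9 at -3.48, Ltf at -2.64, Camp at -2.61, Lcn2 at -2.12 and Ngp at -2.02. In FrD 7 genes turned positive: Ltf at 7.51, Camp at 7.47, Ngp at 7.02, S100a8 at 7.01, S100a9 at 6.94, Mmp8 at 6.50 and Lcn2 at 5.97. The second index as a covariate turned the same 7 positive in FrD: Camp at 2.23, Ltf at 2.20, Ngp at 1.98, Mmp8 at 1.83, S100a9 at 1.78, Lcn2 at 1.72 and S100a8 at 1.58. Without low-complexity libraries the log2 ratio of median summed levels fell from 3.46 to 0.20 in FrB and from 2.39 to -2.11 in FrC.

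Counts of calls moved as follows. DESeq2 gave an adjusted p to 4 members in FrC, 4 in FrD and 6 between WT gates, and to all 10 in the other comparisons. DESeq2 called 2131 genes and 8 members in FrB, 1486 and 2 in FrC, 287 and 3 in FrD, and 120 and 4 in FrE, with 2360 genes and 5 members between WT gates, 1626 and 1 between mutant gates and 769 and 1 in the interaction. ERCC scaling called 148 genes and 5 members in FrB, 225 and 5 in FrC, 0 genes in FrD, 6157 genes and 6 members between WT gates, 4844 genes between mutant gates and 0 genes in the interaction. Without low-complexity libraries 152 genes and 0 members were called in FrB, 39 genes in FrD, 28 in FrE, 2703 genes and 6 members between WT gates, 419 genes between mutant gates and 61 in the interaction. The joint fit called 556 genes and 0 members in FrB and 627, 11 and 5 genes in FrC, FrD and FrE. No low-count filter gave 665 genes and 0 members in FrB, 5 genes in FrE, 1528 genes and 0 members between WT gates, 3414 genes between mutant gates and 196 in the interaction. The second index gave 398 genes and 1 member in FrB and 0 genes in FrD. DESeq2 size factors gave 1387 genes and 2 members between WT gates. With the mouse as a replicate block 910 genes and 0 members were called between WT gates, 329 genes between mutant gates and 2 genes in the interaction, and no other call on a member changed. Causes were not tested.

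Leaving out each mouse gave 264 to 1937 genes and 1 to 4 members called in FrB (1937 without mutant mouse 5; 264, 273, 344, 399 and 330 without WT mice 1, 2, 3, 6 and 7), 0 to 39 genes in FrD and 0 to 21 in FrE. Between WT gates it gave 545 to 1107 genes and 0 to 6 members, between mutant gates 519 to 1029 genes and 0 to 1 members, and in the interaction 0 to 986 genes. The log2 ratio of median sums ran from 2.38 to 4.41 in FrB, 1.50 to 2.92 in FrC, 5.43 to 7.31 in FrD and -1.82 to 6.21 in FrE. Elane in FrC ran from -0.27 to 2.81. In FrD, S100a8 ran from -3.36 to 7.01, S100a9 from -3.59 to 6.94, Lcn2 from -3.50 to 5.97, Camp from -2.97 to 7.47, Ltf from -2.37 to 7.51, Ngp from -2.28 to 7.02 and Mmp8 from -2.02 to 6.50, the positive end without WT mouse 3. Of 546 fold changes of members under alternatives 475 kept their direction and side of the threshold. Where a member had 0 counts, a level under 3 counts of that library was not detectable.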

Other observations

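Red cell RNA was also present in the B-cell gates, at levels that ranged widely among libraries. The summed level of the erythroid genes, 13 of 16 listed being measured, among them globins and Alas2, was highest in mutant mouse 9 FrC at 80564 CPM, where the 10 granule genes summed to 187 CPM. In WT mouse 3 FrD both were high, at 33829 CPM of erythroid and 77369 CPM of granule RNA. In mutant mouse 10 FrB the erythroid genes summed to 394 CPM beside 22258 CPM of granule RNA, and in WT mouse 3 FrB they summed to 16907 CPM beside 40.2 CPM. Of these 4 libraries the first 3 were low-complexity ones. In FrB as a gate the erythroid sum ran from 2423 to 24135 CPM in WT and from 394 to 12679 CPM in mutants, so the groups overlapped. Of 13 erythroid genes tested in FrB, 1 fell (Car1, carbonic anhydrase 1) and 0 rose in mutants at an adjusted p under 0.05 by edgeR, a share near the 7.37% of all genes called there, with a median log2 fold change of -1.29. Without the low-complexity libraries, which leaves 1 mutant library, 0 of 13 were called, with a median of -0.12.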
